A study of Drosophila melanogaster with 2 samples.

Results

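Cuticle protein genes of the Cpr family were examined in 2 RNA-seq libraries from Drosophila heads, 1 from flies on a control diet and 1 from flies given the same diet with sucralose, a chlorinated sweetener. The members are all genes whose FlyBase symbol is Cpr followed by a digit, which gave 70 genes. Of these, 53 were among the 12083 genes with at least 1 unique read in either library and 17 were listed in neither. The unrelated gene named Cpr without a digit, which encodes the P450 reductase, is not a member.

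Both libraries were made from total RNA of heads of adult w1118 flies, a white-eyed laboratory strain. The flies were 4 to 7 days old when the feeding began, spent 6 days on their diet and were 10 to 14 days old at collection. The sources used here state no sex, sucralose dose or number of heads. The control library held 10.3 M unique reads over 11521 genes and the sucralose library 10.4 M over 11588 genes. With 1 library per diet there is no spread between replicates and no test of the diets. Every fold is the ratio of scaled reads between these libraries, and the range given with it is the exact binomial (Clopper-Pearson) 95% interval, which covers counting error only. In bulk heads, fewer cells of a type and less RNA per cell cannot be told apart.

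Insect cuticle is a layered extracellular matrix of chitin fibres embedded in proteins, secreted by the epidermis and by the cells that line the foregut and the tracheae. Cpr proteins are secreted and carry the Rebers and Riddiford consensus, a chitin-binding domain, and the particular set a cell secretes is thought to help set how stiff or flexible its cuticle becomes. Most of the family is switched on in bursts around moults, when a new cuticle is laid down, and adults keep adding cuticle for some days after emerging from the pupal case. In the head, the facets of the compound eye are capped by corneal lenses, which are also cuticle, secreted by the cone and pigment cells. The number and capital letter in a Cpr symbol give the band of the polytene chromosome where the gene lies, and genes with the same band form genomic clusters.

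The family took a small part of the head transcriptome. Its members summed to 7192 reads in the control library, 0.0700% of the total (0.0684 to 0.0717), and to 8801 reads in the sucralose library, 0.0844% (0.0826 to 0.0862). Most members were scarce. The median level of the 45 members with reads in the control library was 1.31 RPKM (reads scaled by gene length and library total). That of the 48 members with reads in the sucralose library was 0.505 RPKM. All genes with reads had medians of 11.3 and 11.0 RPKM. The sets of 45 and 48 members differ, so their medians are not a like comparison. Over the same 53 listed members, the middle rank of 27 was held by Cpr97Ea at 0.643 RPKM in the control library and by Cpr62Bc at 0.423 RPKM in the sucralose library. At least 1 RPKM was reached by 24 members in the control library and by 18 in the sucralose library, and at least 10 RPKM by 9 and 7. Of the 53 listed members, 40 had reads in both libraries, 5 in the control library alone and 8 in the sucralose library alone, and those 13 had at most 5 reads each.

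The level of the family was carried by Cpr65Au, Cpr72Ec and Cpr67B, which held 63.6% of its reads in the control library (62.5 to 64.7) and 80.8% in the sucralose library (80.0 to 81.7). Cpr65Au was at 414.4 RPKM in the control and 383.5 RPKM in the sucralose library, ranks 178 and 188 among the genes listed in each. Cpr67B was at 118.7 and 173.4 RPKM. Cpr72Ec, which encodes a structural protein of the corneal lens, was at 95.2 and 230.3 RPKM. Per length, Cpr65Au was thus the highest member in both libraries, while Cpr67B and Cpr72Ec exchanged the places behind it.

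**Figure D1:**
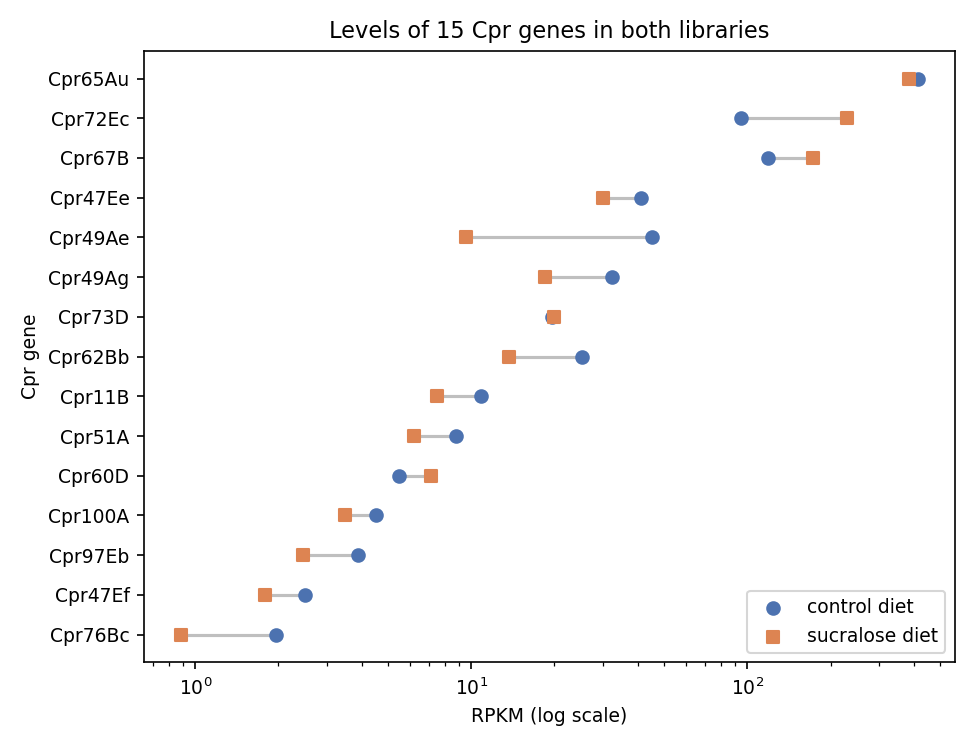
Level in RPKM (log axis) of the 15 Cpr genes that met the floor of 50 summed reads, with a circle for the control and a square for the sucralose library, 1 library each and no error bars. Cpr65Au lies at 414.4 and 383.5 RPKM, Cpr72Ec is further right in the sucralose library, and Cpr49Ae is much further left in it.

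Next in level came Cpr49Ae, Cpr47Ee, Cpr49Ag, Cpr62Bb and Cpr73D. Cpr49Ae held rank 4 in the family at 45.3 RPKM in the control library and rank 8 at 9.56 RPKM in the sucralose library. Cpr47Ee was at 41.3 and 30.0 RPKM, Cpr49Ag at 32.2 and 18.5 RPKM, and Cpr62Bb at 25.1 and 13.6 RPKM. Cpr73D was at 19.7 and 19.9 RPKM. All of these except Cpr73D were lower with sucralose. Cpr11B (10.8 and 7.50 RPKM), Cpr51A (8.79 and 6.20 RPKM) and Cpr60D (5.47 and 7.12 RPKM) followed, and the remaining members were under 5 RPKM in both libraries.

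A floor of 50 reads summed over both libraries was met by 15 of the 70 members, so what follows on these 15 does not speak for the other 55. By differences of log2(CPM + 0.5), sucralose minus control, 1 of the 15 was higher by 1.5-fold or more, 4 were lower by as much and 10 lay between. Of all 8889 genes that met the floor, 1.96% were higher and 4.12% lower by 1.5-fold or more. The share that was lower depends on depth: it was 9.69% of genes with 50 to 199 summed reads, where 1 of 7 members was lower, and 3.57% of those with 200 to 999 reads, where 3 of 4 members were. The 4 members with 1000 to 4999 reads held the higher one and none of the lower, against 0.783% higher and 2.15% lower among all genes of that depth. The median log2 difference of the 15 was -0.46, against 0.00 for all genes over the floor, and 11 of the 15 were below 0, against 50.4% of all genes. The median of the members moved to -0.25 with a pseudocount of 5 CPM, to -0.26 over all 53 listed members and to -0.29 over the 8 with at least 200 reads. These are descriptions of 2 libraries.

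The single member past 1.5-fold upwards was Cpr72Ec, the lens protein gene. It had 1414 reads on the control diet and 3476 with sucralose, and reads covered 97.9% and 99.3% of its gene model. The fold was 2.41 (2.27 to 2.57), and only 10 of the 8889 genes over the floor had a larger log2 difference. Cpr67B came next, with 1231 and 1827 reads, a fold of 1.46 (1.35 to 1.57), which stayed under the threshold although its interval lay above 1. Cpr60D had 28 and 37 reads, and its interval of 0.772 to 2.20 included 1.

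The 4 members at least 1.5-fold lower were Cpr49Ae, Cpr76Bc, Cpr62Bb and Cpr49Ag. Cpr49Ae lay furthest from 1, with 555 reads on the control diet and 119 with sucralose, 4.75-fold lower (3.89 to 5.84). Its gene model was covered over 95.3% and 89.4% of its bases, so reads came from most of its length in both libraries. Only 30 of the 8889 genes had a lower log2 difference. Cpr62Bb had 256 and 141 reads, 1.85-fold lower (1.5 to 2.29). Cpr49Ag had 204 and 119 reads, 1.75-fold lower (1.39 to 2.21). Cpr76Bc rested on 37 and 17 reads, 2.22-fold lower (1.22 to 4.20), and at a pseudocount of 5 CPM its log2 difference of -0.95 became -0.38, which ends the call. Just outside the threshold was Cpr97Eb, with 42 and 27 reads and a log2 difference of -0.58. Its ratio without a pseudocount was 1.59-fold lower (0.955 to 2.67), an interval that included 1, and with a pseudocount of 0.1 CPM it would join the lower members.

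**Figure D2:**
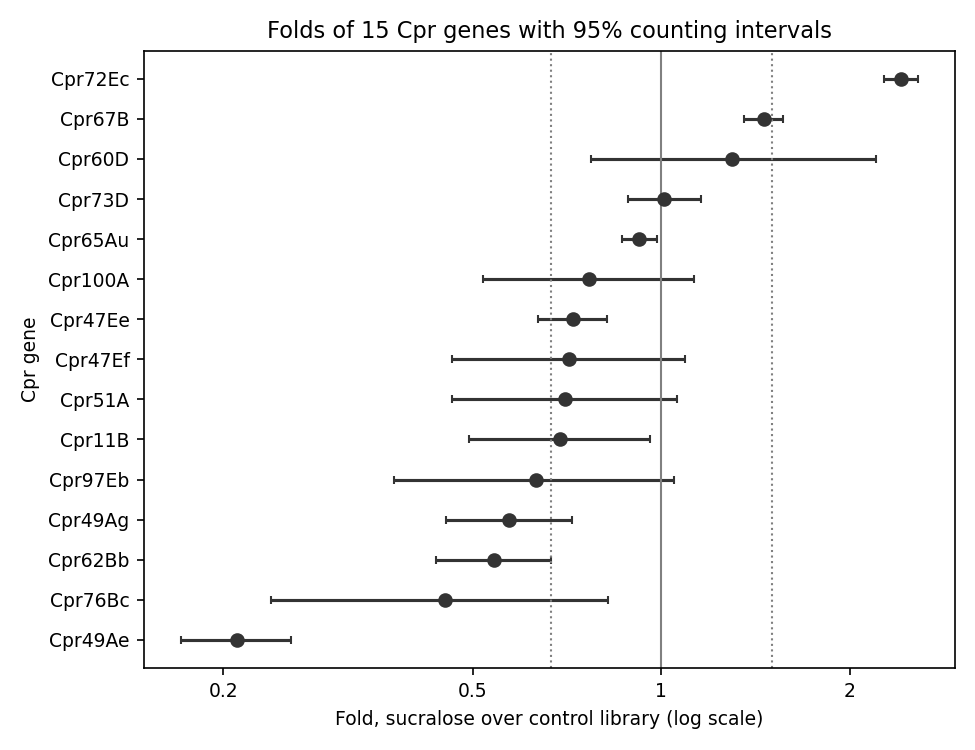
Fold of the sucralose over the control library (log axis) for the 15 Cpr genes with at least 50 summed reads. Points are ratios of scaled reads, bars are exact 95% intervals for counting error, the solid line marks no difference and the dotted lines mark 1.5-fold. The interval lies above 1 for 2 genes, below 1 for 7 and includes 1 for 6.

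Among the members that stayed within 1.5-fold, counting error was small only for the abundant ones. Cpr65Au had 1928 and 1812 reads, a fold of 0.922 (0.864 to 0.984). An antisense gene, asRNA:CR46005, shares 93.3% of the exon bases of Cpr65Au in the BDGP6.54 annotation, and since strandedness is not given, the reads of these genes cannot be told apart. Cpr73D had 436 and 449 reads (1.01, 0.884 to 1.16), and Ogdh on the opposite strand covers 9.7% of its exon bases. Cpr47Ee had 588 and 433 reads, 1.38-fold lower (1.22 to 1.57), and Cpr11B had 91 and 64 reads, 1.45-fold lower (1.04 to 2.03). Cpr51A (60 and 43 reads), Cpr47Ef (55 and 40) and Cpr100A (64 and 50) had more reads in the control library, but their intervals included 1. In that annotation, the other 13 members over the floor share no exon bases with another gene.

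The summed reads of the family were 1.20-fold higher in the sucralose library (1.16 to 1.24), although 11 of the 15 members over the floor had a log2 difference below 0. The sum followed Cpr72Ec. Without it, the other 52 listed members summed to 5778 and 5325 reads, a fold of 0.904 (0.871 to 0.939). Without Cpr72Ec and Cpr67B, 51 members summed to 4547 and 3498 reads, 1.32-fold lower in the sucralose library (1.27 to 1.39). Of the 15, only these 2 had an interval above 1, and they were left out after their values were seen. The fold of the rest was thus bound to be lower. The 38 listed members under the floor summed to 203 and 147 reads, 1.41-fold lower (1.13 to 1.75). Of those 38, 18 had more reads in the control library, 13 more in the sucralose library and 7 the same number, and 22 had at most 5 reads in all.

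Of the 70 members, 49 lie in 12 clusters of at least 2 genes and 21 are single in their band. The 49A cluster on chromosome arm 2R, with 8 genes, summed to 785 reads on the control diet and 252 with sucralose, 3.17-fold lower (2.75 to 3.67). Besides Cpr49Ae and Cpr49Ag, its members were scarce. Cpr49Aa had 12 and 2 reads, Cpr49Af 5 and 0, Cpr49Ah 4 and 1, and Cpr49Ab 4 in each library. Cpr49Ac went the other way with 1 and 7 reads, and Cpr49Ad was not listed. The 47E cluster on the same arm held 7 genes, 4 of them listed, and summed to 658 and 479 reads, 1.40-fold lower (1.24 to 1.58), with 89.4% and 90.4% of these reads from Cpr47Ee. Cpr47Ea had 14 and 5 reads there, and 19.7% of its exon bases are shared with the odorant receptor gene Or47a.

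In the 62B cluster on arm 3L all 3 genes had fewer reads in the sucralose library. Cpr62Ba had 20 and 10 reads, Cpr62Bb 256 and 141, and Cpr62Bc 11 and 5. The cluster summed to 287 and 156 reads, 1.88-fold lower (1.54 to 2.29). The intervals of Cpr62Ba (0.911-fold to 4.88-fold lower) and Cpr62Bc (0.718-fold to 8.23-fold lower) each included no difference. The 76B cluster, 4 genes, summed to 60 and 37 reads, 1.65-fold lower (1.08 to 2.56). Within it, Cpr76Bd had 19 reads in both libraries, and Cpr76Bc made up most of the difference of the cluster.

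In 2 other clusters a single member gave nearly all reads. In 65A, Cpr65Au gave 99.9% of the reads of the cluster in both libraries, with the limit from asRNA:CR46005 given above. Cpr65Aw had 1 control read, Cpr65Az had 2 sucralose reads, and Cpr65Av, Cpr65Ax1, Cpr65Ax2 and Cpr65Ay were not listed. In 72E, Cpr72Ec gave 99.9% of the reads in both libraries, next to Cpr72Ea with 2 reads in each and Cpr72Eb with none listed. In 97E, Cpr97Eb had 42 and 27 reads and Cpr97Ea 10 and 13. In 50C, Cpr50Cb had 17 and 12 reads and Cpr50Ca 4 and 2. The 64A, 65E, 67F and 78C clusters had at most 14 reads in either library, with Cpr67Fb at 8 and 13, Cpr64Ac at 13 and 5 and Cpr78Cc at 7 and 3. The antisense gene asRNA:CR45171 covers 85.1% of the exon bases of Cpr67Fb. For the paired names Cpr65Ax1 and Cpr65Ax2, and Cpr67Fa1 and Cpr67Fa2, reads common to both copies would not count as unique, so their near absence is uncertain. Outside the clusters, Cpr57A was listed in neither library and shares 100% of its exon bases with Obp57d on the same strand, so its absence is uncertain too.

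**Figure D3:**
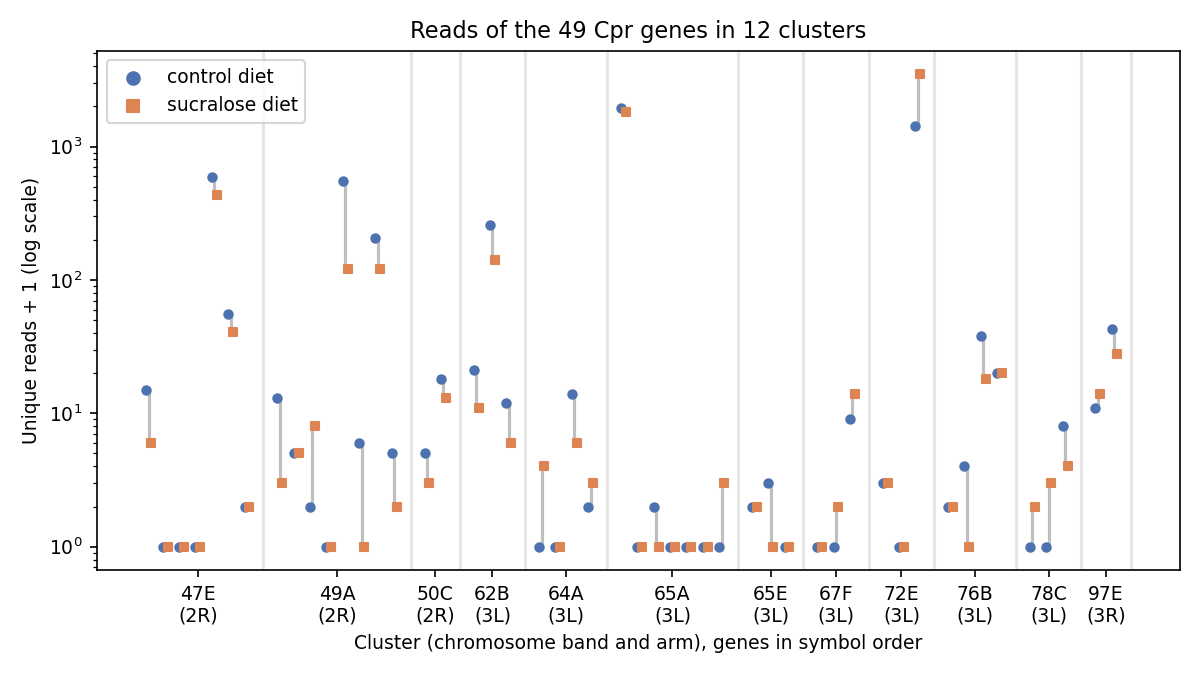
Unique reads + 1 (log axis) of the 49 Cpr genes in 12 clusters, with clusters along the horizontal axis by chromosome band and arm, a circle for the control and a square for the sucralose library. Genes without reads lie at the bottom. In 62B all 3 genes are lower in the sucralose library, and in 65A and 72E a single gene stands far above its neighbours.

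By chromosome arm, the 21 members on 2R summed to 1552 and 826 reads, 1.92-fold lower in the sucralose library (1.76 to 2.09), and 11 of the 16 listed there had fewer reads with sucralose. On 3L, 35 members summed to 5411 and 7800 reads, a fold of 1.41 (1.37 to 1.46). Of its 26 listed members, 12 had fewer reads with sucralose. Only 6 of the 16 listed members on 2R and 6 of the 26 on 3L met the floor. These counts of members therefore rest largely on scarce genes and give no direction for an arm. Much of the difference in each sum rests on few genes. On 2R, Cpr49Ae alone had 555 and 119 reads. On 3L, Cpr72Ec had 1414 and 3476 reads and Cpr67B 1231 and 1827. The 4 members on X (94 and 65 reads) and the 5 on 3R (131 and 105 reads) were scarcer, and the 5 on 2L summed to 4 and 5 reads. On 3R, Cpr92A had 8 and 13 reads and Cpr92F 7 and 2.

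The corneal lens of the fly is built mainly from the proteins of Crys (Drosocrystallin), retinin, Cpr66D and Cpr72Ec, and these 4 genes did not differ in the same direction. The retinin gene had 10193 reads on the control diet and 4121 with sucralose, 2.52-fold lower (2.43 to 2.62). Crys had 173 and 87 reads, 2.03-fold lower (1.56 to 2.65). Cpr66D, under the floor with 18 and 8 reads, was 2.29-fold lower with an interval that included no difference (0.949 to 6.10). Cpr72Ec alone was higher, by 2.41-fold. Per length, retinin stood far above the rest at 1244 and 495.2 RPKM, followed by Cpr72Ec at 95.2 and 230.3 RPKM, Crys at 8.99 and 4.45 RPKM and Cpr66D at 1.59 and 0.695 RPKM. The 4 genes summed to a fold of 0.640 (0.621 to 0.658), which is mostly retinin, and without retinin the fold was 2.18, which is mostly Cpr72Ec. The genes of transcription factors that act in cone cells lay within 1.5-fold: sv (fold 0.987, 0.882 to 1.11), pros (1.12, 1.08 to 1.16) and ct (1.03, 0.954 to 1.11). Reads from bulk heads are not assigned to a cell type, so these folds do not measure the cone cells alone.

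**Figure D4:**
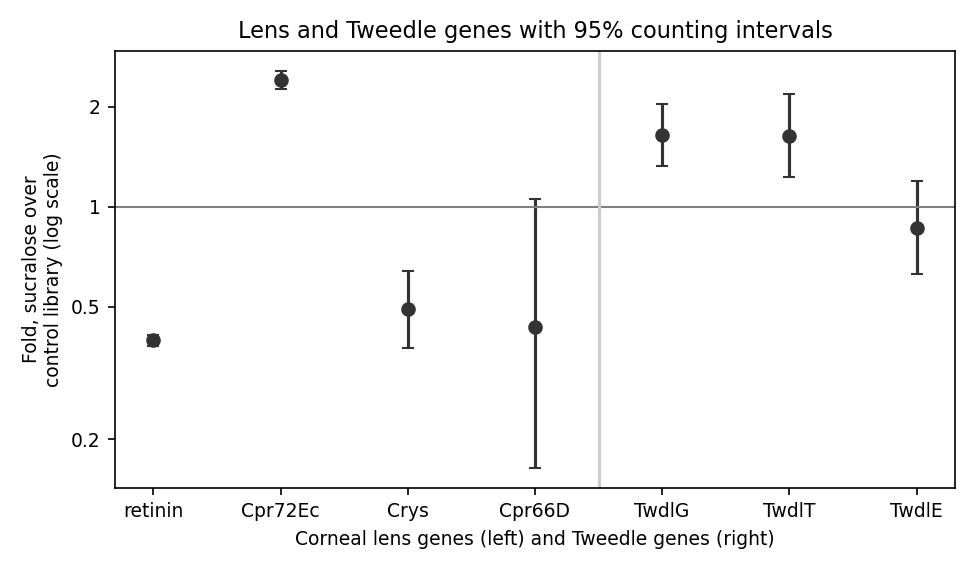
Fold of the sucralose over the control library (log axis) for the 4 corneal lens genes, left of the grey line, and the 3 Tweedle genes with at least 50 summed reads, right of it. Points are ratios of scaled reads and bars are exact 95% intervals for counting error. Of the lens genes only Cpr72Ec lies above 1, and TwdlG and TwdlT both lie above it.

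Other cuticle protein genes were scarcer than the leading Cpr genes. Of 27 genes of the Lcp, Ccp, Acp65A, Edg and Pcp groups and resilin, which encode proteins with the same type of chitin-binding domain, 13 were listed and 2 passed the floor. Ccp84Ag had 46 and 24 reads, 1.95-fold lower (1.17 to 3.35), and resilin, the gene of a rubber-like elastic cuticle protein, had 29 and 43 reads (1.46, 0.887 to 2.42). The list summed to 130 and 110 reads (0.830, 0.638 to 1.08). The Tweedle family, an unrelated set of cuticle proteins, had 14 of 26 genes listed and 3 over the floor, 2 of them at least 1.5-fold higher. Those 2 had 200 to 999 summed reads, where 1.49% of all genes were higher by as much. TwdlG had 138 and 231 reads, a fold of 1.64 (1.32 to 2.04), and TwdlT had 81 and 135 reads, a fold of 1.63 (1.23 to 2.18). TwdlE had 85 and 75 reads (0.866, 0.626 to 1.20), and lectin-28C on the opposite strand covers 71.9% of its exon bases. The family summed to 326 and 462 reads, a fold of 1.39 (1.20 to 1.61), beside 1.20 for the summed Cpr genes. The difference between the families was not tested.

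Genes that make and organise chitin, the partner of the Cpr proteins, mostly lay within 1.5-fold. Of 25 genes, 16 met the floor. Of these, 2 were lower by 1.5-fold or more, none as much higher and 14 between, with a median log2 difference of -0.10. For comparison, 4.12% of all 8889 genes over the floor were lower by as much. The share was 9.69% among genes with 50 to 199 summed reads, the depth of both lower chitin genes. The lower ones were Cda4, a chitin deacetylase gene, with 51 and 14 reads (3.71-fold lower, 2.02 to 7.26), and obst-A, which encodes a chitin-binding organiser of the cuticle matrix, with 122 and 58 reads (2.14-fold lower, 1.56 to 2.98). Per length, Gasp, which encodes a chitin-binding protein of the tracheal matrix, was the highest at 39.8 and 41.6 RPKM (fold 1.04, 0.930 to 1.17), followed by mmy, which makes the precursor sugar of chitin, at 35.5 and 33.7 RPKM (fold 0.944, 0.852 to 1.05). The chitin synthase gene kkv had only 8 and 15 reads. The apical matrix genes dpy (fold 1.05, 1.01 to 1.10) and pio (0.868, 0.818 to 0.922) were the only 2 of 8 zona pellucida genes over the floor, and both lay within 1.5-fold.

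Cuticle tanning cross-links cuticle proteins with catechols made from tyrosine. Of 8 genes of tanning, 5 passed the floor, 2 were at least 1.5-fold lower and 3 lay between, with a median of -0.07. Both lower genes had 1000 to 4999 summed reads, where 2.15% of all genes were lower by as much. The ebony gene e, whose enzyme joins beta-alanine to dopamine, had 973 and 298 reads, 3.33-fold lower (2.92 to 3.8). The black gene b, needed to make that beta-alanine, had 1067 and 430 reads, 2.53-fold lower (2.26 to 2.84). The tan gene t, whose enzyme runs the reverse reaction of ebony, had 2919 and 4050 reads, a fold of 1.36 (1.30 to 1.43). In the head, ebony and tan also recycle histamine between glia and photoreceptors. The dopamine-making genes ple (0.963, 0.870 to 1.07) and Ddc (0.953, 0.907 to 1.0) lay near 1.

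Photoreceptor and neuron markers were abundant in both libraries, as the head label requires, and tissue markers differed between them. The counts below stand beside 1.96% of all 8889 genes over the floor that were at least 1.5-fold higher and 4.12% lower. All 9 photoreceptor markers over the floor were above 0, 1 of them by at least 1.5-fold, and their sum was 1.39-fold higher (1.38 to 1.39) with sucralose. Most of that sum was ninaE, the gene of the major rhodopsin, with 330537 of the 475739 control reads. The fold of ninaE was 1.48 (1.47 to 1.48). The median log2 difference of the 9 markers was 0.29, and they did not differ alike. Rh4 had a fold of 1.66 (1.63 to 1.69), while trp had 41009 and 41923 reads and an interval that included 1 (0.989 to 1.017). Of 8 gut protease and digestive markers over the floor, all were at least 1.5-fold lower, and the 11 listed of 12 summed to 3302 control and 57 sucralose reads, with Jon99Cii, LysC and LysD at 0 in the sucralose library. All 7 muscle markers over the floor were below 0, 5 by at least 1.5-fold, with a sum 1.40-fold lower (1.38 to 1.42). Among 7 glial markers, 4 (Gat, alrm, Eaat1 and Gs2) were lower by 1.5-fold or more, and the sum was 1.56-fold lower (1.53 to 1.59). Most of that sum was Gs2, with 15598 of the 26925 control reads, and Eaat1, with 5789. The other glial markers lay within 1.5-fold: repo (0.956), moody (0.912) and wrapper (1.08). Among 5 fat body markers that met the floor, 2 were higher and 2 lower by 1.5-fold or more, with a sum at 1.02 (1.01 to 1.04). That sum is nearly all the fifth marker, apolpp (fold 1.02), with 48766 of its 49630 control reads. Neuron (0.985, 0.973 to 0.998) and hemocyte markers (0.922, 0.868 to 0.978) had no member beyond 1.5-fold. The part of these differences in the Cpr values was not tested.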

How the data were processed

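The authors deposited 1 table per library, with unique read counts per FlyBase gene, gene length, coverage in percent of the gene model and RPKM, per the file headers. The counts summed to the totals in the headers, and the deposited RPKM equalled reads per length and total recomputed from them. The aligner, build, annotation and strandedness were not given in the sources used here. Libraries were Illumina libraries of Trizol-extracted RNA, per the labels' protocols.

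Identifiers were matched to symbols through a name table and RefSeq synonyms. Of 12083 genes, 11587 matched by current and 4 by older identifier, and 492 had none (6.02% and 6.06% of reads). All 53 listed members matched by current identifier. A member listed in neither library had no read, was not in the authors' annotation or is among the 492 unmatched identifiers. The same limit holds for genes of the other lists that were not listed, so their absence does not show that they were scarce. Exon overlap, neighbours and gene order came from BDGP6.54, and no coordinates are printed. Only 8 of the 15 members over the floor have the same length there as in the deposited tables, so overlaps in the authors' gene models may differ. Counts were scaled by TMM of edgeR 4.0.16 in R 4.3.3 (factors 0.998 and 1.002). Calls used log2(CPM + 0.5) differences of at least 1.5-fold at 50 or more summed reads. Folds are ratios of scaled counts. Intervals cover counting error only: without molecular identifiers, PCR copies of a molecule count as separate reads. Python 3.11.15, pandas 2.3.3 and SciPy 1.17.1 did the rest, and the calculation was tested on simulated data.

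Named were all members over the floor beyond 1.5-fold, the 12 with most reads, the 10 highest by RPKM, the 4 lens genes, cluster neighbours, and the leading genes of other lists (up to 4 by reads and 2 by fold). The other Cpr genes, kkv, ple and the tissue markers were named after their values were seen, as were the neighbouring genes in the closing section. The members and lists were chosen with earlier results of these data known. Alternatives were other scalings, pseudocounts, filters, the deposited RPKM and leaving out members. A planned split by protein motif was not run, and no sequences were used here.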

Additional observations from a re-analysis of the deposited data

How the results depend on the processing

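No paired analysis was possible because each diet has 1 library and the labels give no replicate numbers, and for the same reason no replicate could be left out. Other scalings (total counts, DESeq2 1.42.0 size factors, upper quartile) moved no named member's log2 difference by more than 0.02 and changed neither count of members beyond 1.5-fold. Without a filter, 3 of 53 listed members were at least 1.5-fold higher and 14 lower. Pseudocounts of 0.1 and 5 CPM gave 5 and 3 lower members. Without Cpr72Ec, which has the most reads, 0 of 14 were higher and the summed fold of the family turned to 0.904. The sums also moved with the deposited RPKM, which weights short genes more: to 1.08 for the family and 0.541 for the 4 lens genes. Further alternatives were chosen after seeing the data: leaving the 20 most abundant genes out of the scaling, which changed no count, a 2-fold threshold, which left 1 lower member (Cpr49Ae), leaving out the 49A cluster, which left 2, leaving out Cpr72Ec and Cpr67B, which turned the summed fold to 0.755, and leaving out retinin, which turned the lens sum to 2.18. Of 120 values of single members under the 8 alternatives chosen earlier, 119 stayed within the counting interval of the reported value. None changed sign where that interval excluded no difference. The 120 include values under the alternative filters, which do not enter the log2 difference of a single member, so those values could not move. The exception was Cpr49Ae, at -1.85 in place of -2.20 with a pseudocount of 5 CPM. Depth limits the 55 members under the floor of 50 reads, and with 1 library per diet no difference here can be set against the spread between flies.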

Other observations

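Of the protein-coding genes directly beside the 15 Cpr genes over the floor, 8 were not of the family and had at least 50 summed reads. All 8 lay within 1.5-fold, as did most genes anywhere. Among the 8889 genes over the floor, only 1.96% were higher and 4.12% lower by 1.5-fold or more. Beside Cpr72Ec (fold 2.41), CG4842 had 693 and 826 reads (1.17, 1.06 to 1.29). Beside Cpr67B (1.46), eIF4E1 had 2391 and 2317 reads (0.951, 0.897 to 1.01) and CG4022 had 261 and 255 (0.959, 0.803 to 1.14). Beside Cpr11B (0.690), hwt had 775 and 922 reads (1.17, 1.06 to 1.29) and Pits 1404 and 1468 (1.03, 0.953 to 1.10). The other three were Asx and CG30197 beside Cpr51A, with folds of 1.16 and 0.959, and CG3663 beside Cpr60D, with 0.837. None of the 8 lies beside one of the 4 members at least 1.5-fold lower. The only genes outside the family beside those members were under the floor. CG30048, beside Cpr49Ae, had 1 read in each library. CG30050, beside Cpr49Ag, had 28 and 13 reads, 2.2-fold lower (1.1 to 4.62).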
